A study of Homo sapiens with 12 samples.

Results

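The immunoglobulin heavy chain (IGH), kappa (IGK) and lambda (IGL) loci were described by the H3K27ac peaks that 6 clones of a lymphoma line carried there. H3K27ac, histone H3 acetylated on lysine 27, marks active promoters and enhancers. The line, SUDHL4, derives from a diffuse large B-cell lymphoma and has the phenotype of germinal-centre B cells. From it, single clones had been edited with CRISPR/Cas9 and kept as lines. Each genotype had 2 clones: CREBBP-KO (CREBBP knock-out, guides against exons 15 and 20), EP300-KO (EP300 knock-out, guides against exons 17 and 24) and WT (edited in PPP1R12C, wild type for both acetyltransferase genes). For the first CREBBP-KO clone, the exon in its name differs from the exon in its protocol. All 3 groups therefore went through editing and cloning, each clone descends from a single cell, and all tests measure the spread between clones. The series has 12 samples, 6 immunoprecipitated libraries and 6 inputs, and each of the 6 peak lists sets a library against its own input.

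Members were the peaks lying wholly inside hg19 chr14:106000000-107290000 (IGH), chr2:88900000-90300000 (IGK) and chr22:22370000-23280000 (IGL). There were 1548 of them among 235688 peaks. Overlapping peaks of any lists (at least 1 shared base) were merged to regions, which gave 311 immunoglobulin regions among 48876: 79 in IGH, 108 in IGK and 124 in IGL. Members were thus chosen by position and by a measured value, a peak in at least 1 list, so that acetylation occurs in these loci is not a finding. The loci were also proposed with results of these clones known, and the counts by genotype describe the loci on that basis. A further 9 peaks crossed a border of a locus and were not members. At the borders, the nearest region before IGH, chr14:105957602-105957997, lay 42.0 kb away and the first one inside was chr14:106024873-106025039. The IGK window began inside chr2:88897332-88909819, with chr2:88896541-88897166 just outside, and the next region after it lay 1547 kb away. The IGL window ended inside chr22:23277054-23284892, with chr22:23285100-23285979 just outside and chr22:22336560-22337219 lying 32.8 kb before it.

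An antibody chain is built from a variable part, assembled in developing B cells by joining V, D (heavy chain only) and J gene segments, and a constant part. Transcription of the assembled gene is driven by a promoter in front of each V segment and by enhancers near the constant genes: the intronic enhancer and the 3' regulatory regions of IGH, the intronic and 3' enhancers of IGK and the enhancers downstream of the lambda constant genes. CREBBP and EP300 are paralogous acetyltransferases that act on H3K27. By the RefSeq gene table, IGH has 48 V, 27 D, 6 J and 9 constant gene entries, IGK has 44 V, 5 J and 1 constant, and IGL has 38 V, 7 J and 4 constant, pseudogenes left out. The stretches named below were drawn from general knowledge of hg19 and come from no file used here.

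The B-lineage label held in the lists: the 10-kb bins at the start sites of MS4A1 and CD79A, which encode B-cell surface proteins, were covered by 5958 to 7096 bases of peaks in all 6 clones, and those of CD3E (T cell) and ALB (liver) by 0. The bin of CD14, a monocyte gene, had 513 to 797 bases in every clone. The clones differed in the length of their lists. In CREBBP-KO peaks covered 28.2 and 35.1 Mb, in EP300-KO 26.1 and 26.2 Mb, and in WT 33.9 and 31.3 Mb, and read depth is unknown. Where lengths are compared with limma below, each clone was first centred on its median over the regions covered in all 6 clones. That median, as log2 length against the WT mean, was -0.16 and 0.09 in CREBBP-KO and -0.21 and -0.19 in EP300-KO, so centred values are relative to this shift.

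Promoter sequence is shown for the genes inside the loci that are not rearranging segments and whose start the data bear on. Of 8 genes looked up, 5 had a promoter in the RefSeq table (GRCh38.p14, which is not the build of the peaks), each running from 250 bases before to 50 after the start. Acetylation lies at the starts of 3 of them: VPREB1, part of the surrogate light chain of pre-B cells (chr22:22244536-22244835, plus strand), EIF2AK3, a kinase of the unfolded protein response (chr2:88627415-88627714, minus strand), and RPIA, an enzyme of the pentose phosphate pathway (chr2:88691423-88691722, plus strand). FAM30A, an RNA gene among the D segments (chr14:105917729-105918028, plus strand), is shown because no clone had a peak there. Capitals mark the E-box CAGGTG, read on both strands as CAGGTG or CACCTG.
VPREB1: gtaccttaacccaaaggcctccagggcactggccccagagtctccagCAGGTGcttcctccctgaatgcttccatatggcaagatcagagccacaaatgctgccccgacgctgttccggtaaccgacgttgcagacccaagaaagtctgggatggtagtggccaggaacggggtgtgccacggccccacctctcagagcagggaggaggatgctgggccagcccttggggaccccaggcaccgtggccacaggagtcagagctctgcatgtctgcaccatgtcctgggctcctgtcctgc
EIF2AK3: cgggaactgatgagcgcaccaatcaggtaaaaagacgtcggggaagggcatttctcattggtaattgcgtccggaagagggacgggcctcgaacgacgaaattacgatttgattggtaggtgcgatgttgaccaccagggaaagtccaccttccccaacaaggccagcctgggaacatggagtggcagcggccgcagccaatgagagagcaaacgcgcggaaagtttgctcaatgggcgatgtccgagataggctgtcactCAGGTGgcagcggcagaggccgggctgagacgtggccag
RPIA: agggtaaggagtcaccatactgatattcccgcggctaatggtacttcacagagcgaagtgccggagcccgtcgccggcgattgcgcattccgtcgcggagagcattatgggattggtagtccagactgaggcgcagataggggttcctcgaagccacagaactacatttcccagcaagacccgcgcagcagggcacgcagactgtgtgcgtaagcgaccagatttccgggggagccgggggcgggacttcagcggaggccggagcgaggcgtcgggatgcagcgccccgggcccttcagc
FAM30A: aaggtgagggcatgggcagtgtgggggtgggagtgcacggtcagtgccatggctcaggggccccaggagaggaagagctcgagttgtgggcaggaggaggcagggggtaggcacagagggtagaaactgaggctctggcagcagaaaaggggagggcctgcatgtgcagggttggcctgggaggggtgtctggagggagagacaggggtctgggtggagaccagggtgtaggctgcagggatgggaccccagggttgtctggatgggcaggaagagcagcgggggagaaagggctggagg
The E-box began at base 48 of the VPREB1 promoter and at base 262 of the EIF2AK3 promoter, and 20.6% of the 35116 promoters in the table hold it. The octamer ATGCAAAT, read on both strands, an element known from V segment promoters, was in none of the 4, and 1.77% of all promoters hold it. The promoters also differed in CG dinucleotides, of which RPIA had 29, EIF2AK3 22, VPREB1 8 and FAM30A 3, against a median of 14 over the table.

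In every clone acetylation was densest in blocks around the enhancers and some constant genes, and was sparser over the variable arrays. The IGKC stretch (70.0 kb with the kappa constant gene, its enhancers and the J segments) was 53.1% to 57.6% covered, and the IGKV array 2.57% to 4.58%. In IGH, the first 3' regulatory region with IGHA1 was 44.2% to 48.8% covered and the second with IGHA2 34.7% to 37.7%, against 2.06% to 2.93% of the IGHV array. Other constant stretches of IGH were also sparse, with 3.74% to 4.01% of the stretch from IGHD to the J segments covered, 0.66% to 0.98% of IGHE, IGHG4 and IGHG2, and 0% to 1.01% of IGHG1 and IGHG3. The constant part of IGH as a whole was 12.6% to 13.9% covered. In IGL the contrast was smaller, with 28.0% to 47.3% of the stretch with IGLL5, the J segments and the constant genes covered, and 10.0% to 13.9% of the IGLV array. The map of the loci shows these blocks at the same places in all 6 clones.

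**Figure D1:**
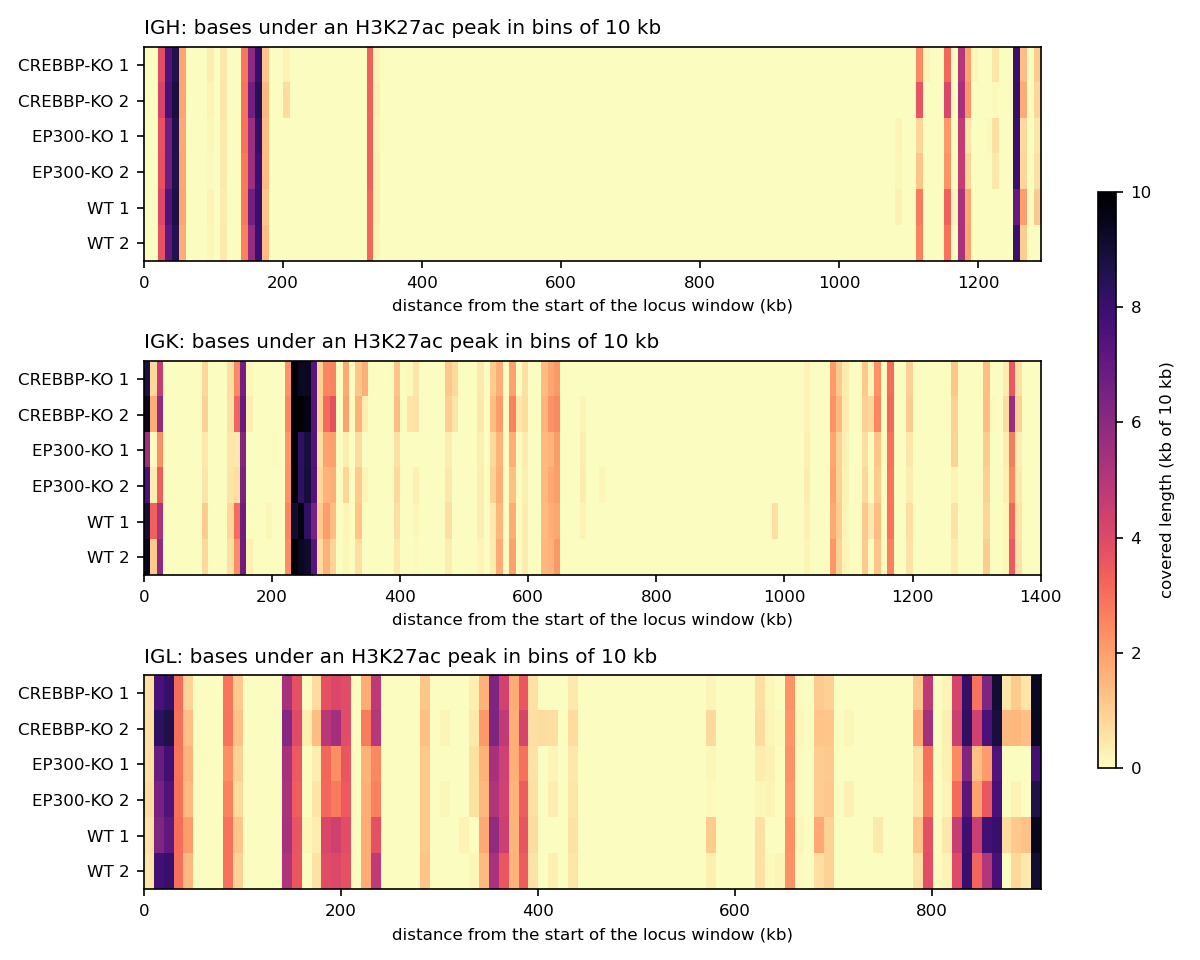
Length covered by H3K27ac peaks in bins of 10 kb (colour, kb of 10 kb) along each locus, by distance from the start of its window in kb, for 2 CREBBP-KO, 2 EP300-KO and 2 WT clones from top to bottom. The dark blocks at the IGH 3' regulatory regions, at IGKC and at the end of IGL recur in all 6 clones, and wide stretches without a peak lie within the variable arrays.

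Long stretches held no peak in any clone. The longest ran from 106330307 to 107083668 on chromosome 14, 753 kb that hold the D segments, FAM30A and most of the IGHV array, and all IGHV peaks lay beyond it, near the end of the chromosome. Another, of 118 kb (chr14:106209212-106326688), lay between IGHG1 and the J segments and takes in IGHM and the IGHD constant gene. In IGK, 263 kb (chr2:89619946-89882863) separated the 2 copies of the V array, and in IGL 141 kb (chr22:22805263-22946189) over ZNF280B and PRAME were free of peaks. The 3 kb around the starts of FAM30A, ZNF280B and PRAME, a cancer-testis antigen, had 0 covered bases in all clones. Whether reads could be placed across all of these stretches, and whether the clones still carried their DNA after the joining of segments, was not examined. A stretch without a peak is thus not shown to lack acetylation.

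The widest regions at the enhancers of IGH and IGK varied little in length between clones. The region at the IGH intronic enhancer and J segments, chr14:106326689-106330306, covered 3518 and 3613 bases in CREBBP-KO, 3521 and 3610 in EP300-KO, and 3494 and 3368 in WT. Its best peak scored above at least 99.8% of the peaks of each list by the authors' own score. The widest region of the second 3' regulatory region, chr14:106036982-106041101, covered 4080 and 4075 bases in CREBBP-KO, 4084 and 4033 in EP300-KO, and 4120 and 4056 in WT. The block with the kappa 3' enhancers, downstream of IGKC, chr2:89127489-89150020, spans 22532 bases and covered 21602 and 22486 bases in CREBBP-KO, 20433 and 20491 in EP300-KO, and 21348 and 21756 in WT. At these 3 regions no difference passed the limma threshold, and the centred log2 differences from WT were between 0.03 and 0.26 (adjusted p from 0.17 to 0.97). At the kappa block the centred EP300-KO value was 0.13, although both EP300-KO clones covered fewer bases there than both WT clones. Stitched over gaps of up to 12 kb, the kappa enhancers and IGKC formed a domain that ranked from 3 to 12 by covered length among the 265 to 604 such domains of a clone.

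Of the 311 regions, 141 (45.3%) had a peak in all 6 clones, beside 44.8% of all regions, and 68 (21.9%) had a peak in 1 clone, beside 22.7% of all regions. Among those 68, 33 belonged to the second CREBBP-KO clone and 17 to the first WT clone. Over the whole series, 11090 regions were in 1 clone, of which 2968 belonged to the second CREBBP-KO clone and 5236 to the first WT clone. At the first IGH 3' regulatory region 16 of 18 regions were in all clones, and at IGLL5, IGLJ and IGLC 3 of 18 were. The single region at the intronic enhancer was in all clones, and neither of the 2 at IGHG1 and IGHG3 was.

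Peaks covered more of the kappa variable array in CREBBP-KO. They covered 43.0 and 51.3 kb in CREBBP-KO clones, 29.9 and 30.1 kb in EP300-KO clones, and 31.4 and 28.7 kb in WT clones. Both CREBBP-KO clones lay above all other clones, and EP300-KO and WT overlapped. The mean was 47.1 ± 5.90 kb in CREBBP-KO and 30.1 ± 1.90 kb in WT (SD, n = 2 each), a ratio of 1.57, with an exact two-sided permutation p of 0.33, which is the smallest that 2 clones against 2 can give. The ratio lay between 1.43 and 1.71 without each clone in turn and was 1.62 as a share of each clone's total. In IGHV the means were 24.9 ± 1.64 kb in CREBBP-KO and 22.8 ± 1.36 kb in WT, and in IGLV 111 ± 11.3 kb in CREBBP-KO and 101 ± 4.50 kb in WT. The clones overlapped in IGLV but not in IGHV. The IGKC stretch itself had 39.1 and 40.3 kb in CREBBP-KO clones, 37.2 and 37.7 kb in EP300-KO clones, and 37.2 and 38.9 kb in WT clones.

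**Figure D2:**
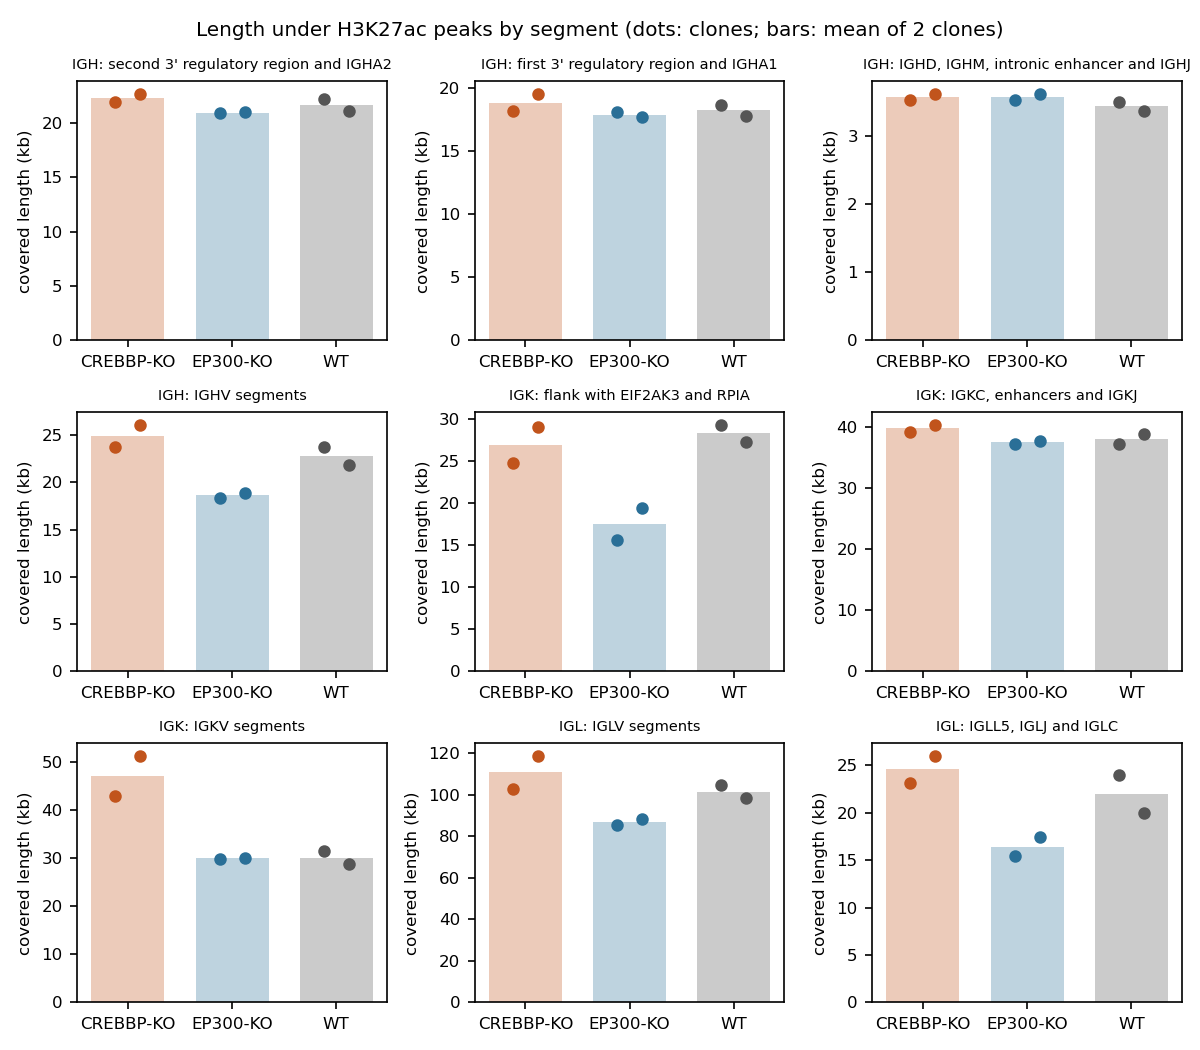
Length under H3K27ac peaks (kb, axes from 0) in 9 stretches of the loci, with a dot per clone and a bar at the mean of 2 clones. CREBBP-KO stands at 43.0 and 51.3 kb over IGKV, above both other genotypes. Both EP300-KO clones are below all others in the second 3' regulatory region, IGHV, IGK flank, IGLV and IGLL5 panels. The EP300-KO mean is lowest in every panel except that from IGHD to IGHJ.

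The kappa V segments lie in 2 arrays of near-identical copies, and the placing of reads that match both was not stated. On the side next to IGKC, peaks covered 24.6 and 28.8 kb in CREBBP-KO clones, 15.9 and 17.2 kb in EP300-KO clones, and 15.8 and 14.1 kb in WT clones, a ratio of CREBBP-KO to WT of 1.78. On the far side they covered 18.4 and 22.6 kb in CREBBP-KO clones, 13.96 and 12.9 kb in EP300-KO clones, and 15.6 and 14.6 kb in WT clones, a ratio of 1.36. This split at the longest stretch without a peak was made after the values were seen, and in both arrays the CREBBP-KO clones were above all others (exact permutation p = 0.33).

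By presence of peaks, 24 of the 301 immunoglobulin regions seen in CREBBP-KO or WT were gained in CREBBP-KO, that is present in both of its clones but absent from both WT clones. That is 7.97%, where 1.3% of all regions were gained. Of the 24, 18 lay in the IGKV array, 15 of them on the side next to IGKC, while 2 were in IGH and 4 in IGL. The regions were short, with a median of 256 covered bases. The longest, chr2:89213522-89214408, had 756 and 887 bases in CREBBP-KO, 0 and 217 in EP300-KO, and 0 in both WT clones. Next by length, chr2:89292600-89293267 had 384 and 633 bases in CREBBP-KO, 105 and 273 in EP300-KO, and 0 in WT. The region chr2:89215563-89216048 had 481 and 450 bases in CREBBP-KO, 0 and 147 in EP300-KO, and 0 in WT. The region chr2:89442057-89442622 had 420 and 507 bases in CREBBP-KO, 403 and 477 in EP300-KO, and 0 in WT, so that here all 4 knock-out clones had a peak. The fifth, chr2:89246610-89247376, had 767 and 132 bases in CREBBP-KO, 0 and 176 in EP300-KO, and 0 in WT. Of the 18 IGKV regions, 9 were in neither EP300-KO clone, 6 in 1 of them and 3 in both. Where peaks within 1 kb were joined first, 9 regions in the loci were gained in place of 24. Without the first CREBBP-KO clone 58 were gained, and without the first WT clone 38. Here and below, a call with a clone left out asks for fewer clones. Counts under such other settings have no share of all regions beside them and show only how far the number moves. The single lost region, chr2:89536778-89536942 in IGKV, had 0 bases in both CREBBP-KO clones and 154 and 111 in WT, and 3.19% of all regions were lost. With a clone left out, 2 to 19 were lost, the most without the second WT clone.

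**Figure D3:**
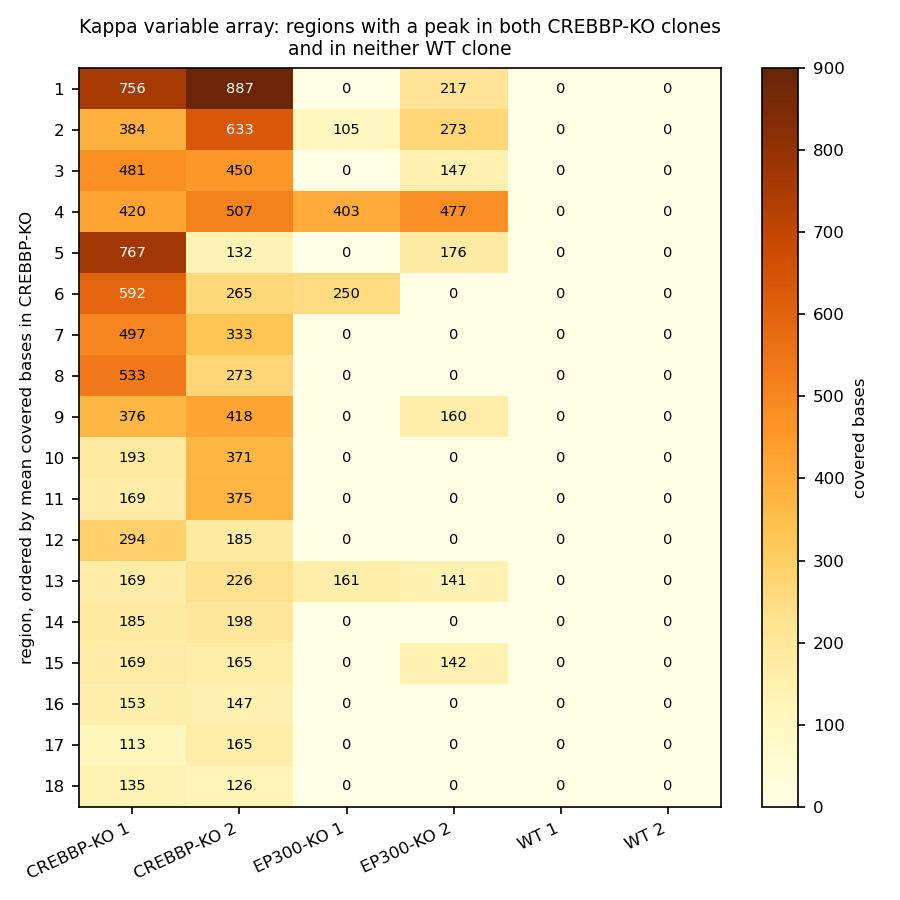
Covered bases (printed and as colour) in each clone for the 18 regions of the kappa variable array with a peak in both CREBBP-KO clones and neither WT clone, ordered by their mean in CREBBP-KO. The WT columns are 0 by the choice of these regions, and the EP300-KO columns are 0 in both clones for 9 of the 18.

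The lengthwise test gave no call in CREBBP-KO. Of the 311 regions, 130 reached 500 covered bases in 2 or more clones and entered limma, which fitted log2(covered bases + 100) over 19860 regions with Benjamini-Hochberg adjustment. None of the 130 passed an adjusted p of 0.05 in CREBBP-KO against WT, where 0.0101% of all tested regions were called lower and 0% higher. Without a trend of the variance on length the count was also 0. At an unadjusted p under 0.05 there were 20 of 130 (15.4%), of which 13 were in IGK, beside 8.83% of all tested regions. The closest to the threshold in IGKV was chr2:90042111-90043733, which had 1420 and 1599 bases in CREBBP-KO, 806 and 676 in EP300-KO, and 685 and 817 in WT (log2 difference from WT 0.96, adjusted p = 0.20). It was named after its values were seen. Windows of 100 kb gave the same count, with 0 of 24 past the threshold (0% of all windows in either direction). An unadjusted limma p under 0.05 was reached by 11 of 24 (45.8%), beside 13.9% of all tested windows. Of these 11, 8 were among the 10 IGK windows. The counts at an unadjusted p include features that met the length filter only through the 2 CREBBP-KO clones. Among them are the region chr2:89213522-89214408 and the window chr2:89300001-89400000, so these counts are no support for a difference.

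At the V segment nearest to IGKC, IGKV4-1, peaks in the region chr2:89184105-89186283 covered 2061 and 2179 bases in CREBBP-KO, 1909 and 1564 in EP300-KO, and 1744 and 1605 in WT. The clones of EP300-KO and WT overlapped there. The widest IGKV region, chr2:90067041-90069921, had 2819 and 2866 bases in CREBBP-KO, 2794 and 2729 in EP300-KO, and 2652 and 2435 in WT, with no call in any comparison.

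In EP300-KO all 3 loci had less covered length, and the constant blocks of IGH and IGK took little part in it. IGH had 61.3 and 61.7 kb in EP300-KO and 68.6 and 64.5 kb in WT, a ratio of 0.92. IGK had 82.7 and 87.3 kb in EP300-KO and 97.9 and 94.9 kb in WT, a ratio of 0.88, and IGL 101 and 106 kb in EP300-KO against 129 and 118 kb in WT, a ratio of 0.84. In each locus both EP300-KO clones were below both WT clones (exact permutation p = 0.33). The order was the same over all peaks, with 26.1 and 26.2 Mb in EP300-KO and 33.9 and 31.3 Mb in WT. As shares of each clone's total the ratios turned to 1.15, 1.10 and 1.04, so the loci fell less than the lists as a whole. The IGH constant stretches together had 43.0 and 42.8 kb in EP300-KO and 44.9 and 42.7 kb in WT, which overlapped. Within them, the second 3' regulatory region had 20.84 and 20.95 kb in EP300-KO, below 22.12 and 21.03 kb in WT. The flank of IGK with EIF2AK3 and RPIA had 15.6 and 19.4 kb in EP300-KO and 29.3 and 27.3 kb in WT, a ratio of 0.62 that remained below 1 as a share of the total (0.77). The IGLL5, IGLJ and IGLC stretch had 15.4 and 17.5 kb in EP300-KO and 24.0 and 19.9 kb in WT, a ratio of 0.75, or 0.93 as a share of the total.

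By presence, 20 of the 258 regions seen in EP300-KO or WT were lost in EP300-KO, 7.75% where 9.92% of all regions were lost. The 20 divided into 9 in IGL, 7 in IGH (6 of them in IGHV) and 4 in IGK. The IGH loss outside IGHV, chr14:106034200-106034520, lay in the second 3' regulatory region, with 0 bases in both EP300-KO clones and 192 and 117 in WT. None of the 20 lay in the IGKC stretch, the first IGH 3' regulatory region or the intronic enhancer. The longest, chr22:23218115-23219216 in IGLV, had 0 bases in both EP300-KO clones and 1080 and 622 in WT, and 570 and 972 in CREBBP-KO. The next, chr22:23268215-23269287, between the lambda constant genes and enhancers, had 0 bases in both EP300-KO clones and 1002 and 406 in WT. The region chr22:22382662-22383420 had 0 bases in EP300-KO and 597 and 759 in WT, and chr2:89048960-89049700, near the end of RPIA, had 0 bases in EP300-KO and 664 and 681 in WT. The fifth, chr2:88917344-88918443, in EIF2AK3, had 0 bases in EP300-KO and 1100 and 141 in WT, with the WT clones far apart. Joined over 1 kb, 3 regions were lost, and without the second WT clone the count was 61, without the second EP300-KO clone 31.

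Gains in EP300-KO numbered 6 of 258 (2.33%, beside 1.88% of all regions), set against the same WT clones as the gains in CREBBP-KO. The count was 1 with peaks within 1 kb joined and 10 with lists of equal length. Leaving out an EP300-KO clone gave 18 (the first) or 11, and leaving out a WT clone 12 (the first) or 10. The regions chr2:89442057-89442622 and chr2:89292600-89293267, given above, were among them, as was chr2:89213025-89213310 in IGKV, with 169 and 226 bases in CREBBP-KO, 161 and 141 in EP300-KO, and 0 in WT. The others named by length were chr14:107229093-107229613 in IGHV, with 352 and 110 bases in CREBBP-KO and 323 and 442 in EP300-KO, and chr22:22707134-22707485 in IGLV, with 129 and 172 bases in CREBBP-KO and 307 and 261 in EP300-KO. These regions had 0 bases in WT.

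By limma, 9 of the 130 tested regions fell in EP300-KO (6.92%, where 6.13% of all tested regions were called lower) and 3 rose (2.31%, where 1.21% were called higher). The 9 became 3 without either CREBBP-KO clone, without either WT clone or with CREBBP-KO kept out of the fit. The 3 that rose became 0 without either CREBBP-KO clone, when the first EP300-KO clone was left out or CREBBP-KO was kept out of the fit. They became 1 when the second EP300-KO clone, the centring or the variance trend was left out. The 9 were 6 in IGL, 2 in the IGK flank and 1 in IGHV. At chr2:89048960-89049700 the log2 difference was -2.75 ± 0.27 (SE, limma adjusted p = 0.0096) and at chr22:23218115-23219216 it was -3.00 (adjusted p = 0.012), and these 2 regions passed under each of 12 other settings. Next to the first of them, chr2:89046408-89047778 had 0 and 115 bases in EP300-KO and 1222 and 955 in WT (log2 difference -2.81, adjusted p = 0.019). In these regions the size depends on the 100 bases added, since EP300-KO had little or no coverage. In IGHV, chr14:107113732-107114748 had 305 and 326 bases in EP300-KO and 849 and 707 in WT (log2 difference -0.87, adjusted p = 0.030). At the border of the IGLL5 stretch, chr22:23226338-23227203 had 0 and 161 bases in EP300-KO and 839 and 743 in WT (adjusted p = 0.048). It did not pass with lists of equal length, without centring or without the variance trend. Beyond it, chr22:23163612-23164735 in IGLV had 208 and 288 bases in EP300-KO and 720 and 943 in WT (adjusted p = 0.035). The lost regions chr22:22382662-22383420 and chr22:23268215-23269287 also passed, with log2 differences of -2.75 and -2.70 (adjusted p = 0.021 and 0.031). The latter did not pass with a pseudocount of 1000.

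At VPREB1 the region over the start had like lengths in all clones, and a region beside it had no peak in either EP300-KO clone. The region over its start, chr22:22598203-22601693, had 3397 and 3491 bases in CREBBP-KO, 3214 and 3230 in EP300-KO, and 3374 and 3333 in WT. Beside it, chr22:22604345-22605339 had 898 and 967 bases in CREBBP-KO, 0 in both EP300-KO clones, and 337 and 862 in WT (log2 difference in EP300-KO against WT -2.50, limma adjusted p = 0.036). This call was not made with a pseudocount of 1000, and the region met the length filter only through clones other than EP300-KO. Between them, chr22:22601848-22604143 had 2247 and 2287 bases in CREBBP-KO, 895 and 1103 in EP300-KO, and 1779 and 2295 in WT, without passing against WT (adjusted p = 0.072).

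The promoters of EIF2AK3 and RPIA lie in the flank of IGK, where EP300-KO had less covered length in sum without most regions passing. At EIF2AK3, chr2:88924860-88927032 had 1832 and 2145 bases in CREBBP-KO, 1708 and 1886 in EP300-KO, and 1995 and 2145 in WT. Its centred log2 difference in EP300-KO against WT was 0.007 (limma adjusted p = 0.96). The neighbouring chr2:88921450-88924708 had 2109 and 3032 bases in CREBBP-KO, 0 and 864 in EP300-KO, and 2589 and 3125 in WT, but its log2 difference of -3.04 did not pass (adjusted p = 0.14). At RPIA, chr2:88991256-88992018 had 562 and 576 bases in CREBBP-KO, 102 and 258 in EP300-KO, and 763 and 457 in WT (adjusted p = 0.13 in EP300-KO against WT), with both EP300-KO clones below all others. Beside it, chr2:88990632-88990963 had 234 and 267 bases in CREBBP-KO, 332 and 286 in EP300-KO, and 324 and 305 in WT, so EP300-KO and WT overlapped there. The widest region of this flank, chr2:88897332-88909819, had 10301 and 11823 bases in CREBBP-KO, 6998 and 9122 in EP300-KO, and 10962 and 11871 in WT (adjusted p = 0.26).

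The 3 regions that rose in EP300-KO were in the variable arrays. In IGKV, chr2:89194867-89196552 had 1464 and 1338 bases in EP300-KO and 304 and 589 in WT (log2 difference 1.71, limma adjusted p = 0.029). In CREBBP-KO it had 1476 and 1672 bases, so both knock-outs lay above both WT clones, but the CREBBP-KO difference of 1.70 did not pass (adjusted p = 0.21). In IGLV, chr22:22728210-22729171 had 888 and 838 bases in EP300-KO and 584 and 612 in WT (adjusted p = 0.048), and chr22:23062741-23063960 had 1102 and 1170 in EP300-KO and 904 and 899 in WT (adjusted p = 0.043). These last 2 passed in 1 and 2 of 12 other settings.

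**Figure D4:**
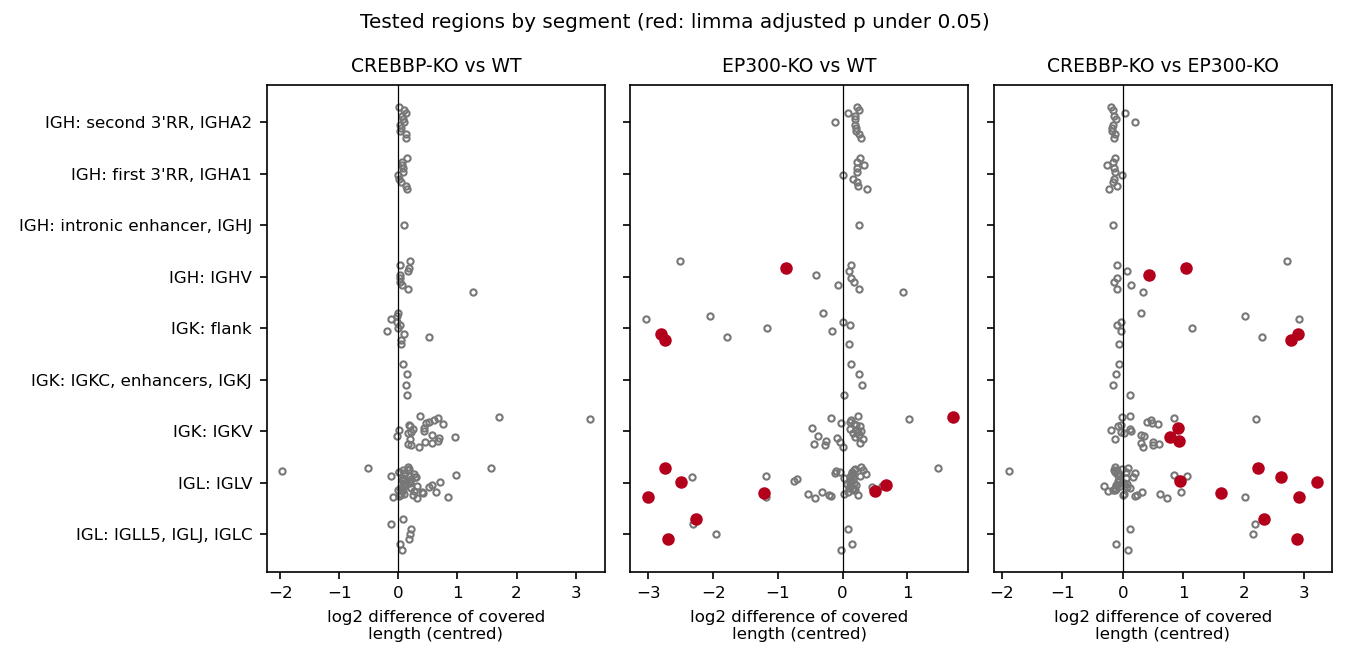
Log2 difference of centred covered length for each of the 130 tested regions, by stretch, in CREBBP-KO against WT, EP300-KO against WT and CREBBP-KO against EP300-KO, with regions past a limma adjusted p of 0.05 in red. The left panel has no red point, and the middle panel has 9 red points left and 3 right of 0.

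At the end of IGL, with the lambda constant genes, the extent of wide domains differed between clones, also within WT. Peaks stitched over gaps of up to 12 kb formed a single domain of 116 kb in both CREBBP-KO clones and of 117 kb in the first WT clone. This length depends on the gap, and one wider by 0.5 kb, tried first, gave 143 kb in the same 3 clones. In both EP300-KO clones and the second WT clone it was split, with a stretch of 56.9 and 57.1 kb in EP300-KO and 57.1 kb in WT around IGLL5 and a shorter one at the enhancers. The region at IGLL5, chr22:23229086-23239087, had 9780 and 9671 bases in CREBBP-KO, 7589 and 8284 in EP300-KO, and 8943 and 8285 in WT. The enhancer region chr22:23270570-23276786 had 6076 and 6095 bases in CREBBP-KO, 5728 and 6023 in EP300-KO, and 6217 and 6071 in WT. Neither passed in any comparison (limma adjusted p from 0.41 to 0.98). Of the 18 regions in this stretch 7 met the length filter and were tested.

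By window, 1 of 24 fell in EP300-KO (4.17%, where 7.14% of all windows were called lower) and 0 rose (1.83% of all windows). It was chr14:107100001-107200000, in the IGHV array, with 12911 and 15290 bases in CREBBP-KO, 8119 and 8940 in EP300-KO, and 13372 and 12756 in WT (log2 difference in EP300-KO against WT -0.40, limma adjusted p = 0.046). It was not called when any 1 of the 6 clones was left out, or without the variance trend.

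CREBBP-KO and EP300-KO differed from each other most often in one direction. Of 292 regions seen in either, 42 had peaks in both clones of CREBBP-KO but in no clone of EP300-KO (14.4%, where 7.62% of all regions were), and 3 were the reverse (1.03%, where 3.27% of all regions were). With peaks within 1 kb joined the 42 became 13, and without the first CREBBP-KO clone 91. The 3 became 6 without the second CREBBP-KO clone or the second EP300-KO clone, and 9 without the first EP300-KO clone. The 42 were 17 in IGL, 14 in IGK and 11 in IGH, and this comparison shares its clones with the 2 against WT. The 5 longest included chr22:23218115-23219216, chr22:23268215-23269287 and chr2:89048960-89049700, with 505 to 1017 bases in the CREBBP-KO clones and 0 in EP300-KO, and the region beside VPREB1. The fifth, chr22:23269798-23270453, in front of the lambda enhancers, had 427 and 656 bases in CREBBP-KO, 0 in both EP300-KO clones, and 468 and 408 in WT. Where the V arrays took part without WT, as at chr2:89385088-89385603, chosen after its values were seen, CREBBP-KO had 497 and 333 bases and both EP300-KO and WT had 0. The 3 regions in the other direction were short. In IGHV, chr14:107083669-107083929 had 0 bases in CREBBP-KO, 169 and 125 in EP300-KO, and 261 and 0 in WT. In IGKV, chr2:89586016-89586181 had 0 bases in CREBBP-KO and 114 and 166 in EP300-KO, and chr2:89536778-89536942 had 0 in CREBBP-KO and 106 and 113 in EP300-KO.

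By limma, 15 of the 130 regions were higher in CREBBP-KO when set against EP300-KO (11.5%, where 7.21% of all tested regions were called higher) and 0 lower (1.9% of all tested regions). They were 8 in IGL, 5 in IGK and 2 in IGHV, and none was in an IGH constant stretch or the IGKC stretch. Of the 5 in IGK, 3 were in IGKV, chr2:90042111-90043733, chr2:90091333-90092381 and chr2:89475119-89476190, named after their values were seen. At chr2:90042111-90043733, whose lengths are given above, the log2 difference was 0.77 (adjusted p = 0.040). The region chr2:90091333-90092381 had 939 and 1049 bases in CREBBP-KO and 499 and 340 in EP300-KO, and differed by 0.93 ± 0.19 on the log2 scale (SE, adjusted p = 0.045), and chr2:89475119-89476190 had 695 and 1056 in CREBBP-KO and 341 and 369 in EP300-KO (adjusted p = 0.035). The largest difference, at chr22:22604345-22605339 beside VPREB1, was 3.20 (adjusted p = 0.018). At the 8 other regions named above for EP300-KO, which shares its clones with this comparison, the log2 differences here were from 1.05 to 2.92. These 8 and chr22:22604345-22605339 met the length filter only through clones other than EP300-KO, so their p-values are no support here either. Another in IGLV, chr22:22560069-22561686, had 949 and 1413 bases in CREBBP-KO and 0 and 235 in EP300-KO (adjusted p = 0.049). Without the first CREBBP-KO clone 0 of the regions passed, and without the second 1 did.

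Of the 24 windows, 7 were higher in CREBBP-KO (29.2%, where 10.7% of all windows were) and 0 lower (3.25% of all windows), 4 of them in IGK. Among the 7, chr22:23200001-23300000 runs past the IGL border at 23280000 and also holds peaks outside the locus. The window chr2:89300001-89400000 in IGKV had 2517 and 2560 bases in CREBBP-KO, 321 and 728 in EP300-KO, and 799 and 472 in WT. Its log2 difference between the knock-outs was 2.05 (limma adjusted p = 0.023), but the window met the length filter only through the 2 CREBBP-KO clones. That p-value is therefore no support for the difference, although the count of 7 includes this window. Without either CREBBP-KO clone the window was not tested. The same window differed by 1.98 between CREBBP-KO and WT without passing (adjusted p = 0.15). Without either CREBBP-KO clone or the first EP300-KO clone no window passed.

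The IGHG1 stretch held the only 2 regions found between the first 3' regulatory region and the J segments. The region chr14:106208660-106209211 had 207 and 552 bases in CREBBP-KO and 0 in EP300-KO and WT, and its best peak scored above 3.39% and 51.3% of the other peaks in the CREBBP-KO lists. The other, chr14:106208021-106208175, had 155 bases in the second CREBBP-KO clone and 0 in the other clones. In the stretch of IGHE, IGHG4 and IGHG2 the widest region, chr14:106111857-106112332, had 446 and 476 bases in CREBBP-KO, 397 and 412 in EP300-KO, and 388 and 394 in WT. None of these regions met the length filter of the test.

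In the IGH first 3' regulatory region, the widest region chr14:106165398-106169419 had 3857 and 4020 bases in CREBBP-KO, 3759 and 3777 in EP300-KO, and 3765 and 3579 in WT. The widest IGHV region, chr14:107251990-107261385, had 9196 and 9359 bases in CREBBP-KO, 8773 and 8822 in EP300-KO, and 8018 and 9030 in WT, and its best peak ranked above at least 99.4% of each list. In IGLV the widest region, chr22:22515989-22523975, had 7719 and 7987 bases in CREBBP-KO, 7419 and 7330 in EP300-KO, and 7591 and 7550 in WT. The best peak of the first of these 3 scored above 96.8% and 96.6% of the list in CREBBP-KO, 94.0% and 94.3% in EP300-KO, and 93.8% and 95.9% in WT. None of the 3 passed in any comparison, and p-values that miss the threshold do not show that the lengths are equal.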

How the data were processed

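H3K27ac ChIP-seq was made in 6 single clones of SUDHL4 with 6 inputs, and 6 peak lists were used. Cells were fixed in 1% formaldehyde and libraries read as 150-bp paired ends, per the labels' protocols. The submitters' processing notes name CASAVA 1.8, Bowtie2 2.1.0, SAMtools 0.1.19 and hg19. Lists compare a library with its input, per the file headers, so peaks were called per clone. No source used here names the peak caller. The deposited score per peak runs to 170 with no stated meaning and was used to rank peaks within a list. The deposited start and end are positions. Starts were read as counted from 0, which is not stated, so printed starts carry an uncertainty of 1 base. Depth is unknown, and precision rests on 2 clones per genotype.

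Peaks sharing a base were merged. Gained means at least 1 base in both clones of the first-named genotype and none in both of the other, and lost the reverse. Covered length entered limma 3.58.1 under R 4.3.3, as centred log2(covered bases + 100) with a variance trend, in 1 fit of all 6 clones. Features needed 500 bases (regions) or 1000 bases (100-kb windows) in 2 clones, and p-values were adjusted over all of them (threshold 0.05). A window counted as a member where it overlapped a locus, so windows at a border also hold bases outside it. The trend was chosen with both outcomes known. Such log2 differences understate changes of short regions. Sums over clones were compared with exact two-sided permutation tests. Code was checked on simulated data.

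Named regions were the widest of each stretch, all past the limma threshold (up to 10 per comparison and direction), up to 5 lost and 5 gained, those at genes that are not rearranging segments, and border neighbours and those next to them at the same gene. Members and lists were chosen with earlier results of these data known. Alternatives are given in the closing section, of which no variance trend and a wider stitching gap were added after seeing the data. Positions of genes and stretches on hg19 are general knowledge, since the annotation at hand is of GRCh38. One marker of the planned list is not reported here.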

Additional observations from a re-analysis of the deposited data

How the results depend on the processing

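No paired analysis was possible because the labels give the clones no replicate numbers; numbers here only name clones. As a share of each clone's total, EP300-KO over WT turned above 1 for IGH (1.15), IGK (1.10) and IGL (1.04), for the IGH constant stretches together (1.22), the second 3' regulatory region (1.21), IGHE to IGHG2 (1.15), the first 3' regulatory region (1.22), IGHV (1.02), IGKC (1.23), IGKV (1.24) and IGLV (1.07). CREBBP-KO over EP300-KO turned below 1 for IGH (0.958), its constant stretches (0.891), both 3' regulatory regions (0.888 and 0.876) and IGKC (0.884). The EP300-KO ratio at IGKV, close to 1, turned to 1.08 with lists of equal length and 1.01 with the upper 50% of peaks by score. With each clone left out in turn, ratios close to 1 crossed it: EP300-KO over WT ran from 0.955 to 1.004 for the IGH constant stretches, from 0.858 to 1.001 for IGHE to IGHG2, to 1.006 for the first 3' regulatory region, from 0.964 to 1.008 for IGKC and from 0.955 to 1.045 for IGKV (1.002 without the first EP300-KO clone), and CREBBP-KO over WT fell to 0.996 for the first 3' regulatory region and ran from 0.874 to 1.03 for the IGK flank.

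Counts of lost or gained regions moved most, and a call with a clone left out asks for fewer clones in every part of the genome. In CREBBP-KO against WT 0 were lost with lists of equal length or with 200 covered bases required, and 9 gained with peaks within 1 kb joined. In EP300-KO against WT joining gave 3 lost and 1 gained, and equal lists 10 gained. In CREBBP-KO against EP300-KO joining gave 13 gained. Without each clone in turn, lost and gained regions numbered in CREBBP-KO against WT 2 to 19 and 29 to 58, in EP300-KO against WT 22 to 61 and 10 to 18, and in CREBBP-KO against EP300-KO 3 to 9 and 45 to 91.

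By limma, equal lists called 1 region higher in CREBBP-KO against WT. In EP300-KO against WT only the 4 clones compared gave 3 lower and 0 higher, and 1 was higher without centring or without the variance trend. For windows, EP300-KO against WT had 2 lower with a pseudocount of 1000 and 0 without the filter, with only the 4 clones or without the trend. CREBBP-KO against EP300-KO had 11 higher windows with the pseudocount of 1000 or the 4 clones, and 4 without centring or without the trend. Without each clone in turn, regions numbered for CREBBP-KO against WT 0 to 1 higher, for EP300-KO against WT 3 to 13 lower and 0 to 2 higher, and for CREBBP-KO against EP300-KO 0 to 17 higher. Windows ran from 0 to 1 higher in CREBBP-KO against WT, 0 to 1 lower in EP300-KO against WT, and 0 to 11 higher in CREBBP-KO against EP300-KO. The causes were not tested. The depth of the lists is unknown, so a missing peak is not shown to be missing acetylation.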
